A study of Homo sapiens with 4 samples.

Results

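The 10 genes described here encode antiviral restriction factors, proteins that block a step of viral replication inside the cell or at its membrane. They are RSAD2 (viperin), CMPK2, MX1, MX2, IFITM1, IFITM2, IFITM3, BST2 (tetherin), ISG20 and SAMHD1, and all 10 were found among the 24424 gene symbols of the count files. The genes were chosen by name, at a point when CPM ratios of interferon-stimulated genes between these libraries were already known. Their values are therefore given as a description, with no test.

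RNA was sequenced from BEAS-2B, a human cell line derived from normal bronchial epithelium and immortalised with a viral antigen, with genotype given as wild type and 1 library in each of 4 groups. One group was left untreated (control) and one received bacterial lipopolysaccharide for 2 h (LPS). In the third, occludin siRNA was introduced 24 h before 2 h of LPS (siOCLN+LPS in the plots, here the siOCLN library). The fourth received wild-type occludin 24 h before 2 h of LPS (wtOCLN+LPS in the plots, here the library labelled wtOCLN). The labels of control and LPS mention neither a transfection nor a mock, so the siRNA, the occludin transfection and the act of transfection cannot be told apart against them. As every group is a single library, no difference has a replicate check and no p-value is given. All intervals given are 95% intervals of counting error, and PCR copies were not separated from molecules.

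Most of these genes are classical interferon-stimulated genes. Type I and type III interferons signal through the kinases JAK1 and TYK2 to transcription factors, IRF9 and STAT2 among them, which bind interferon-stimulated response elements in promoters. Such elements are built from repeats of the half-site GAAA, which factors of the IRF family contact. The proteins then act at different points: IFITM proteins and MX proteins early in infection, SAMHD1 and CMPK2 on nucleotide pools, ISG20 on RNA, viperin by making a chain-terminating nucleotide, and tetherin on the release of budding particles.

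The promoters of the genes are shown first, because interferon is known to act on such genes through promoter elements. RefSeq windows on GRCh38.p14 from 250 bases before to 50 after a start site were matched for 8 of the 10 genes, with 13 windows in all. A pair of patterns was searched on both strands: GAAANNGAAA, with 2 bases between the half-sites, and GAAANGAAA, with 1, which was added after the sequences had been seen. The first lay in 7 of the 13 windows, against 3.57% of 35116 windows of the same length over all genes. The second lay in 4 of the 13, against 3.12% of all windows, and either pattern lay in 10 of the 13, against 6.40%. As the second pattern was picked with these windows in view, its share and the combined share cannot show an excess. An RSAD2 and a CMPK2 window also overlap, so the same matches count in both. By gene, 7 of the 8 held a match, and SAMHD1 held neither pattern in its window. Genes had 1 to 3 windows each, and the share by gene over all genes was not computed. A match of these letters is a description and not a measured binding site, and no match says only that the letters are not in the window.

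The following stretches run 5′ to 3′ along the gene, with the matches in capitals; a match on the opposite strand reads as TTTC repeats. Each keeps up to 15 bases around the matches that begin before the start site. They show the pattern with 1 base between in RSAD2 and MX1, and that with 2 bases between in IFITM1, IFITM3, BST2, ISG20 and the downstream RSAD2 start. Of the 3 MX1 windows only the second is printed. The first held both patterns, and the third held the pattern with 2 bases between.
RSAD2, upstream start, chr2:6865718-6865848, plus strand: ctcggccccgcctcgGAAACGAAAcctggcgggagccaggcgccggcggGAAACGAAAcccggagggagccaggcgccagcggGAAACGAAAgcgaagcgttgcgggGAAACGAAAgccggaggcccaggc
RSAD2, downstream start, chr2:6877617-6877656, plus strand: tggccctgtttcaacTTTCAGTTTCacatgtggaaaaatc
MX1, second start, chr21:41426111-41426194, plus strand: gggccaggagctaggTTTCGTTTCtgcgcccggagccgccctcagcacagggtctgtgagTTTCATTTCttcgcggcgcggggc
IFITM1, chr11:313985-314043, plus strand: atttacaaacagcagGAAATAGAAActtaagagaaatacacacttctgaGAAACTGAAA
IFITM3, chr11:320871-320927, minus strand: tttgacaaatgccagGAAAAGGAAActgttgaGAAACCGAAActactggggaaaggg
BST2, chr19:17405730-17405775, minus strand: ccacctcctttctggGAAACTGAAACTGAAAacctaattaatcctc
ISG20, chr15:88638932-88638971, plus strand: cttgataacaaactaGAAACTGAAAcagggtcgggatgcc

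The upstream RSAD2 stretch holds 4 copies of the pattern with 1 base between. RSAD2 and CMPK2 are neighbours that run in opposite directions. The windows of the upstream RSAD2 start and of the CMPK2 start that holds matches share 165 bases, with the starts 66 bases apart, and the 2 matches of the CMPK2 window are also among the RSAD2 matches. In BST2 the 2 matches overlap each other, and in IFITM1 the second match crosses the start site. IFITM1 and IFITM3 each have 2 matches close to the start.

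Library totals ran from 13867494 to 17500031 counts. A single count was worth 0.0571 to 0.0721 CPM, which is counts scaled to a library total of 1000000. OCLN, the gene targeted by the siRNA, was at 55.4 CPM in control, 50.4 in LPS, 21.0 in the siOCLN library and 29.7 in the library labelled wtOCLN. The last value goes against the label, since it was 0.588 of the LPS level (interval 0.524 to 0.660), so the comparisons below do not show the response to raised OCLN counts. Whether the label was exchanged, or introduced occludin is not counted at this gene, was not tested. Of 9 epithelial markers, 8 or 9 reached 1 CPM in every library, led by KRT7, with a summed level of 1442 to 1629 CPM in the untransfected and 2879 to 2893 CPM in the transfected libraries. Against LPS, 5 and 4 of the 8 tested were past 2-fold higher in the siOCLN library and the library labelled wtOCLN. The share over all genes tested was 3.32% in each of these comparisons. Of 10 leukocyte markers, 5 to 8 were at 0 counts and CD68 alone reached 1 CPM, with a summed level of 16.9 to 17.5 CPM without and 5.21 to 7.54 CPM with transfection. PTPRC, the pan-leukocyte marker, had 3 counts in control and 0 in the other libraries. Of 7 fibroblast markers 2 reached 1 CPM, and their list summed to 70.4 to 76.7 CPM without and 106 to 111 CPM with transfection. These marker differences run with transfection, as the results below do, and their part in them was not tested. In RNA from a whole culture, fewer cells of a type and less RNA per cell cannot be told apart.

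Added together, the 10 genes took 606 CPM in control, 575 CPM in LPS, 1798 CPM in the siOCLN library and 3235 CPM in the library labelled wtOCLN. The untransfected libraries lay close together and both transfected libraries lay above them, with the library labelled wtOCLN highest for each of the 10 genes.

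**Figure D1:**
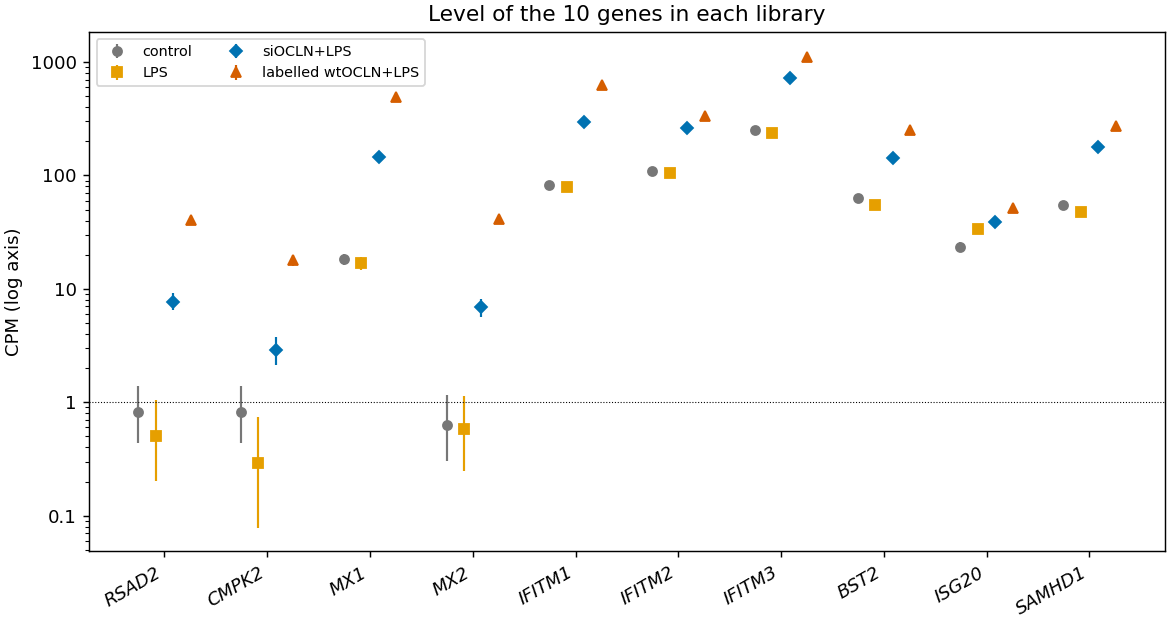
CPM (log axis) of each of the 10 genes in the 4 libraries, with exact Poisson 95% intervals of counting error as bars and a dotted line at 1 CPM. RSAD2, CMPK2 and MX2 lie below 1 CPM in control and LPS, and the library labelled wtOCLN is highest for every gene.

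RSAD2 encodes viperin, a radical SAM enzyme of the endoplasmic reticulum and lipid droplets. Its counts were 13 in control, 7 in LPS, 135 in the siOCLN library and 713 in the library labelled wtOCLN, or 0.818, 0.505, 7.72 and 40.7 CPM. It was barely detected without transfection, and the intervals of control (0.436 to 1.40 CPM) and LPS (0.203 to 1.04 CPM) overlapped. The level in the siOCLN library was 15.3-fold that in LPS (7.23 to 38.8), and that in the library labelled wtOCLN was 80.7-fold (39.0 to 201).

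CMPK2, a mitochondrial nucleoside monophosphate kinase whose gene lies beside RSAD2, had the lowest levels of the 10 in both transfected libraries. It had 13 counts in control, 4 in LPS, 50 in the siOCLN library and 312 in the library labelled wtOCLN, or 0.818, 0.288, 2.86 and 17.8 CPM. The ratio to LPS was 9.92 (3.64 to 37.8) in the siOCLN library and 61.8 (23.9 to 228) in the library labelled wtOCLN, on 4 LPS counts. Against control, with 13 counts, the ratios were 3.50 (1.87 to 7.02) and 21.8 (12.6 to 41.4).

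The proportion of the 2 neighbours to each other differed by less than counting error between the transfected libraries. RSAD2 counts were 2.70 times CMPK2 counts in the siOCLN library and 2.29 times in the library labelled wtOCLN, and the ratio of these ratios was 1.18 (0.824 to 1.71).

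MX1 encodes MxA, a cytoplasmic dynamin-like GTPase that traps viral nucleocapsids. It stood at 18.2 CPM in control, 16.7 in LPS, 144 in the siOCLN library and 488 in the library labelled wtOCLN. It was 8.62-fold LPS in the siOCLN library (7.53 to 9.91) and 29.2-fold in the library labelled wtOCLN (25.6 to 33.4). These were the highest ratios to LPS among the 7 genes that reached 1 CPM without transfection.

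MX2 encodes MxB, a relative at the nuclear envelope known for restricting HIV-1. It had 10 counts in control, 8 in LPS, 120 in the siOCLN library and 729 in the library labelled wtOCLN, or 0.629, 0.577, 6.87 and 41.7 CPM. Like RSAD2, it was near the limit of detection without transfection. The ratio to LPS was 11.9 (5.85 to 28.2) in the siOCLN library and 72.2 (36.5 to 168) in the library labelled wtOCLN.

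MX1 and MX2 lie next to each other on chromosome 21, and MX1 had more counts in every library. MX1 counts were 28.9 times those of MX2 in control, 29 times in LPS, 21.0 times in the siOCLN library and 11.7 times in the library labelled wtOCLN. The proportion differed between the transfected libraries by a factor of 1.79 (1.47 to 2.21), beyond counting error. Their coding sequences were 69.5% identical over 1974 aligned bases. Of the 50-base words of the MX1 transcript 0.678% occurred in MX2, and of those of MX2 0.635% occurred in MX1.

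The IFITM proteins are small membrane proteins that hinder fusion of viral and cell membranes. IFITM1 acts mostly at the cell surface, and IFITM2 and IFITM3 mostly in endosomes. IFITM1 was at 82.6 CPM in control, 79.6 in LPS, 295 in the siOCLN library and 624 in the library labelled wtOCLN. For IFITM2 the values were 110, 106, 264 and 332 CPM in the same order, and for IFITM3 they were 252, 236, 718 and 1118 CPM. The 3 genes were abundant in every library, and together they stood at 421 CPM in LPS and at 1276 and 2074 CPM in the transfected libraries.

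Of the 3, IFITM1 had the highest ratios to LPS and IFITM2 the lowest, with intervals that did not overlap. IFITM1 was 3.70-fold LPS in the siOCLN library (3.47 to 3.95) and 7.83-fold in the library labelled wtOCLN (7.36 to 8.34). IFITM3 was at 3.05-fold (2.93 to 3.17) and 4.74-fold (4.57 to 4.92). IFITM2 was at 2.49-fold (2.35 to 2.64) and 3.14-fold (2.96 to 3.32).

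The make-up of the family differed between libraries. IFITM1 took 18.6% of the 3 genes' counts in control (Clopper-Pearson interval 17.7 to 19.5), 18.9% in LPS, 23.1% in the siOCLN library and 30.1% in the library labelled wtOCLN (29.6 to 30.5). The IFITM2 share was 25.2% in LPS, 20.7% in the siOCLN library and 16.0% in the library labelled wtOCLN. IFITM3 was the largest, at 53.9% to 56.7% in the 4 libraries. Relative to IFITM2, IFITM1 was higher than in LPS by a factor of 1.49 (1.36 to 1.62) in the siOCLN library and 2.50 (2.29 to 2.72) in the library labelled wtOCLN, while LPS against control gave 0.996 (0.894 to 1.11).

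**Figure D2:**
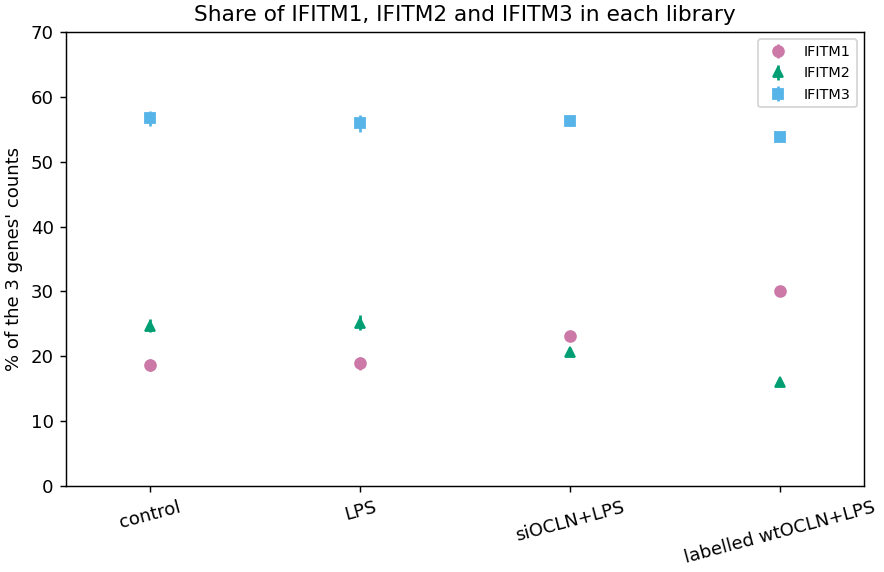
Share of IFITM1, IFITM2 and IFITM3 in the counts of the 3 genes (percent), by library, with exact binomial 95% intervals as bars. Control and LPS lie together, and IFITM1 lies above IFITM2 in both transfected libraries and below it in the others.

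How reads were divided among the IFITM genes is not given in the sources used here, so the split is uncertain. In GENCODE 29, 42.3% of the 50-base words of the IFITM1 transcript, 15.7% of IFITM2 and 20.3% of IFITM3 occurred in a transcript of another gene. An IFITM2 transcript is annotated across 41.1% of the IFITM1 exon bases. Coding sequences were 93.9% identical between IFITM2 and IFITM3, 88.7% between IFITM1 and IFITM3, and 86.0% between IFITM1 and IFITM2. The 120 coding bases from the IFITM1 start codon, with the aligned stretches of the other genes, show how few letters separate them. Capitals mark bases that differ from IFITM3, 18 in IFITM1 and 7 in IFITM2.
IFITM1: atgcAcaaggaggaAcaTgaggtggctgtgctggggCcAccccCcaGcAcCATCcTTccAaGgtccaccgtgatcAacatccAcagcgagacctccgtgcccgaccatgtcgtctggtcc
IFITM2: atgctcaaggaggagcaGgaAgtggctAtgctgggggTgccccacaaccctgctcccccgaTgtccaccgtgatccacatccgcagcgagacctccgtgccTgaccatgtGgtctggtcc
IFITM3: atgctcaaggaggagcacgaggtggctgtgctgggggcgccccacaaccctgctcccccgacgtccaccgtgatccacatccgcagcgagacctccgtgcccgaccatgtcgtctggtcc

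BST2, which encodes tetherin, the membrane anchor that holds budding virions to the cell, was at 62.8 CPM in control (59.0 to 66.8) and 54.4 in LPS (50.6 to 58.5). In the siOCLN library it was at 142 CPM, 2.61-fold LPS (2.41 to 2.84). In the library labelled wtOCLN it was at 250 CPM, 4.59-fold LPS (4.25 to 4.96). The long non-coding RNA BISPR, whose start lies beside that of BST2 on the opposite strand, had 33, 23, 61 and 84 counts across control, LPS, the siOCLN library and the library labelled wtOCLN. It was thus also higher in both transfected libraries, at 2.10-fold LPS (1.28 to 3.56) and 2.89-fold (1.81 to 4.81).

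ISG20, an exonuclease that degrades RNA, had the lowest ratios to LPS among the 10. It was at 23.4 CPM in control, 33.6 in LPS, 39.1 in the siOCLN library and 51.5 in the library labelled wtOCLN. With library totals it was the 1 gene of the 7 tested that stood higher in LPS than in control, at 1.44-fold (1.25 to 1.65). Against LPS it was at 1.16-fold (1.03 to 1.31) in the siOCLN library and 1.53-fold (1.37 to 1.72) in the library labelled wtOCLN, within 2-fold in both.

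SAMHD1, a dNTP triphosphohydrolase that limits reverse transcription, was at 54.9 CPM in control, 47.4 in LPS, 179 in the siOCLN library and 272 in the library labelled wtOCLN. It was 3.78-fold LPS (3.47 to 4.12) in the siOCLN library and 5.73-fold (5.28 to 6.23) in the library labelled wtOCLN. These ratios were above those of BST2, with intervals that did not overlap. The transcript overlaps TLDC2 on the opposite strand over 5.59% of its exon bases, and TLDC2 had 13 to 34 counts in the 4 libraries, beside 658 to 4760 for SAMHD1.

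Genes were compared on the log2(CPM + 1) scale where at least 1 of the libraries compared reached 1 CPM, and called higher or lower from 2-fold upward. This scale understates the ratio of genes with few counts.

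For LPS against control, which asks what 2 h of LPS did without transfection, 0 of 7 tested genes were past 2-fold in either direction. Over all 13551 genes tested, 1.6% were higher and 0.207% lower. RSAD2, CMPK2 and MX2 were left out by the filter, being below 1 CPM in both libraries. Their CPM ratios were 0.617 (0.208 to 1.66), 0.353 (0.0837 to 1.14) and 0.917 (0.314 to 2.58), each with an interval that holds 1. BST2 and SAMHD1 had CPM ratios of 0.867 (0.788 to 0.954) and 0.865 (0.780 to 0.958), and IFITM3 of 0.935 (0.893 to 0.979). The median log2 ratio over all tested genes was -0.09, and that of the 7 genes was -0.10. IFITM1 and IFITM2, just below 0 with library totals, were just above 0 under the TMM, upper quartile and median ratio scalings. Under these scalings IFITM3 had log2 ratios of -0.0079 to -0.0005, in place of -0.0965. Those of BST2 and SAMHD1 were -0.1184 to -0.1078, in place of -0.2027 and -0.2058.

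For the siOCLN library against LPS, 9 of the 10 were at least 2-fold higher and 0 lower, with ISG20 within 2-fold. Over all 13505 genes tested, 3.32% were higher and 3.92% lower. Of all calls 45.9% were thus higher ones, against 60.8% with median ratio, 57.9% with upper quartile and 61.5% with TMM scaling. RSAD2, CMPK2 and MX2 entered through the transfected library, in which they were high, and had to differ. Log2 ratios ran from 0.21 in ISG20 to 3.03 in MX1.

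For the library labelled wtOCLN against LPS, 9 of the 10 were again at least 2-fold higher and 0 lower, and ISG20 was within 2-fold. Over all 13493 genes tested, 3.32% were higher and 3.69% lower. The higher share of calls was 47.4%, against 64.7%, 58.5% and 64.9% with those scalings, and none of them changed the count or a direction among the 10 genes in either comparison. Log2 ratios ran from 0.60 in ISG20 to 4.79 in RSAD2. As before, RSAD2, CMPK2 and MX2 passed the filter through the transfected library alone and had to differ. This comparison and the one before it use a single LPS library, and an error in that library would enter both. With control as the reference, 9 of the 10 were past 2-fold higher in the siOCLN library, and 0 lower, against 3.94% higher and 5.44% lower of 13584 genes tested. In the library labelled wtOCLN the count was 10 of the 10 higher, against 3.91% higher and 4.91% lower of 13569 genes. The added gene was ISG20, at 2.20-fold control (1.95 to 2.49), which was also 1.44-fold higher in LPS than in control. Against control, LPS and transfection are not separated. RSAD2, CMPK2 and MX2 were below 1 CPM in control too, so here also they passed the filter through the transfected library alone.

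**Figure D3:**
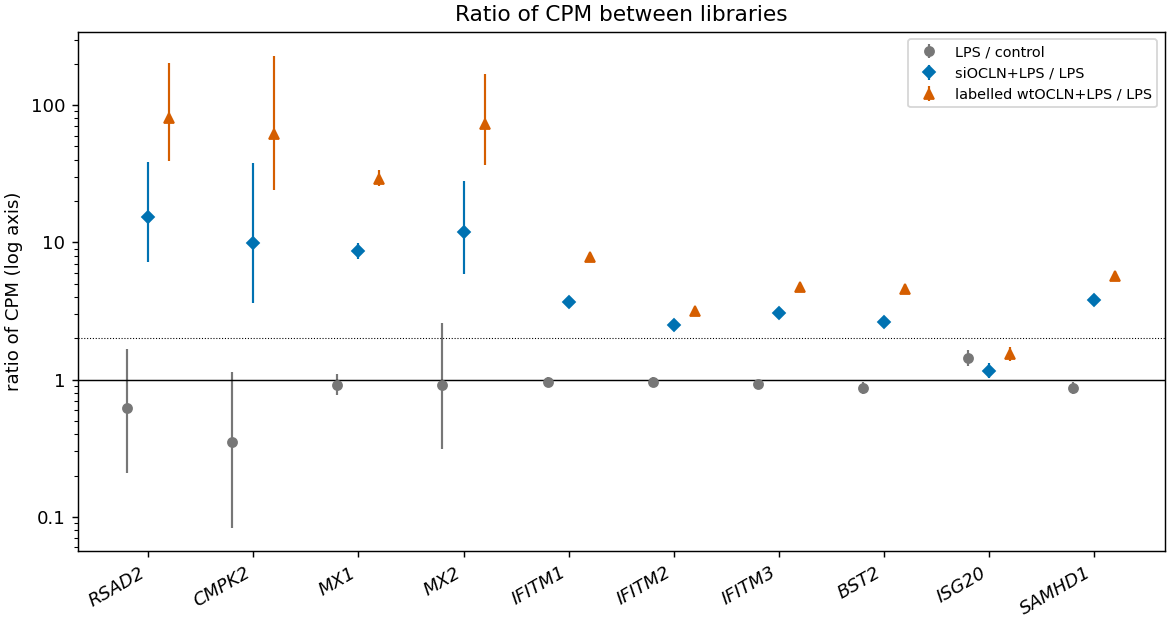
Ratio of CPM (log axis) for LPS over control, the siOCLN library over LPS and the library labelled wtOCLN over LPS, by gene, with exact 95% intervals of counting error as bars, a line at 1 and a dotted line at 2. The widest intervals belong to RSAD2, CMPK2 and MX2, which rest on 4 to 8 counts in LPS, and ISG20 lies below 2 in all 3 ratios.

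The siOCLN library against the library labelled wtOCLN asks how the transfected cultures differed, with siRNA and occludin transfection not separated from occludin level. Each of the 10 genes had the lower level in the siOCLN library, and 5 (MX2, CMPK2, RSAD2, MX1 and IFITM1) were past 2-fold. Over all 13109 genes tested, 0.29% were lower and 0.0763% higher. MX2, CMPK2 and RSAD2 had log2 ratios of -2.44, -2.29 and -2.26, the lowest 3 of all genes tested at a pseudocount of 1 CPM. That order depends on the pseudocount: CMPK2, MX2 and RSAD2 held ranks 7, 8 and 9 from the lowest at 0.1 CPM, and at 5 CPM MX2 and RSAD2 held ranks 1 and 2, MX1 rank 4 and CMPK2 rank 7. MX1 was at -1.75 and IFITM1, the other gene past 2-fold, at -1.08.

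The remaining 5 lay within 2-fold, but each CPM ratio had an interval below 1. CPM ratios were 0.569 (0.541 to 0.598) for BST2, 0.642 (0.628 to 0.657) for IFITM3, 0.659 (0.630 to 0.690) for SAMHD1, 0.759 (0.687 to 0.840) for ISG20 and 0.794 (0.763 to 0.825) for IFITM2. The genes thus spread from CMPK2, at 16.0% of the level in the library labelled wtOCLN, to IFITM2, at 79.4%. The 3 genes below 1 CPM without transfection had the lowest of these ratios.

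**Figure D4:**
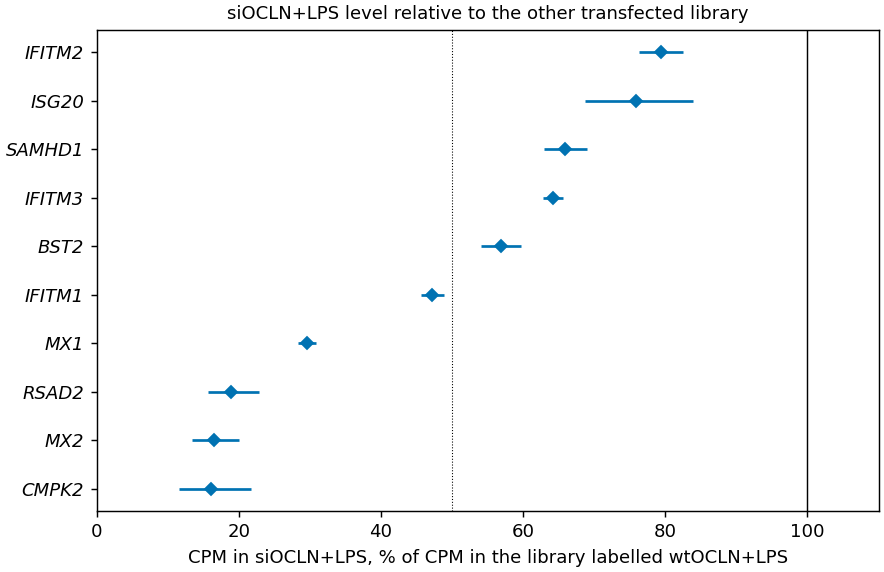
CPM in the siOCLN library as a percent of CPM in the library labelled wtOCLN, by gene, with exact 95% intervals of counting error as bars and a dotted line at 50%. CMPK2, MX2 and RSAD2 lie below 20% and IFITM2 lies at 79.4%.

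Per kilobase of transcript, with lengths from GENCODE 29, IFITM3 was the most abundant gene in every library, at 292 CPM per kilobase in LPS and 1383 in the library labelled wtOCLN. In LPS the order went on with IFITM2, IFITM1, BST2, ISG20, SAMHD1 and MX1, from 161 down to 5.87 CPM per kilobase. MX2 and RSAD2 followed at 0.190 and 0.143, then CMPK2, with overlapping intervals. In the siOCLN library, MX1 stood above SAMHD1 and ISG20, at 50.6 CPM per kilobase, and MX2 and RSAD2, at 2.26 and 2.20, had overlapping intervals. In the library labelled wtOCLN no neighbours in the order overlapped, IFITM1 stood above IFITM2, and MX1 was at 171 CPM per kilobase. The intervals hold counting error only. They leave out the choice of a single transcript per gene for length and the uncertain split of reads among the IFITM genes.

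The interferon pathway itself was followed in a list of 18 genes, of which 13 reached 1 CPM. Interferon genes were hardly counted. IFNB1 had 0 counts in control, LPS and the siOCLN library, where 3 counts would be 0.172 to 0.216 CPM, and 1 count in the library labelled wtOCLN. IFNL1 had 7 counts in the library labelled wtOCLN and 0 in the others. The receptor gene IFNAR1 was at 82.9 to 97.6 CPM and the kinase gene JAK1 at 126 to 164 CPM in the 4 libraries.

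The transcription factors IRF9 and STAT2 differed in how far they stood above LPS. IRF9 was at 29.3 CPM in control, 24.3 in LPS, 47.3 in the siOCLN library and 80.5 in the library labelled wtOCLN. STAT2 was at 93.5, 82.4, 85.3 and 121 CPM in the same order. With library totals the siOCLN library thus lay within counting error of LPS (ratio 1.04, interval 0.959 to 1.12). Under that scaling the median log2 ratio over all tested genes was -0.13, against 0.01 with TMM scaling. The STAT2 ratio depends on this choice and is given for library totals only.

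IRF7, an interferon-induced transcription factor, was at 30.5, 26.6, 38.2 and 86.7 CPM in the same order. USP18, which dampens interferon receptor signalling, was at 10.4, 9.16, 15.4 and 39.4 CPM. Both were past 2-fold lower in the siOCLN library than in the library labelled wtOCLN, as RSAD2, CMPK2, MX1, MX2 and IFITM1 were. IRF1 had another pattern, at 89.1, 463, 1036 and 1009 CPM, 5.20-fold higher in LPS than in control (4.91 to 5.51), with a ratio of 1.03 (1.01 to 1.05) between the transfected libraries.

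Of the 13 tested pathway genes, 2 were past 2-fold higher in LPS against control (IRF1 and SOCS3), 1 in the siOCLN library against LPS (IRF1) and 4 in the library labelled wtOCLN against LPS (IRF1, USP18, IRF9 and IRF7), with 0 lower. Over all genes tested, 1.6%, 3.32% and 3.32% were higher in the same order. The median log2 ratios were -0.08, 0.05 and 0.24 in these comparisons, beside -0.09, -0.13 and -0.15 over all genes.

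**Figure D5:**
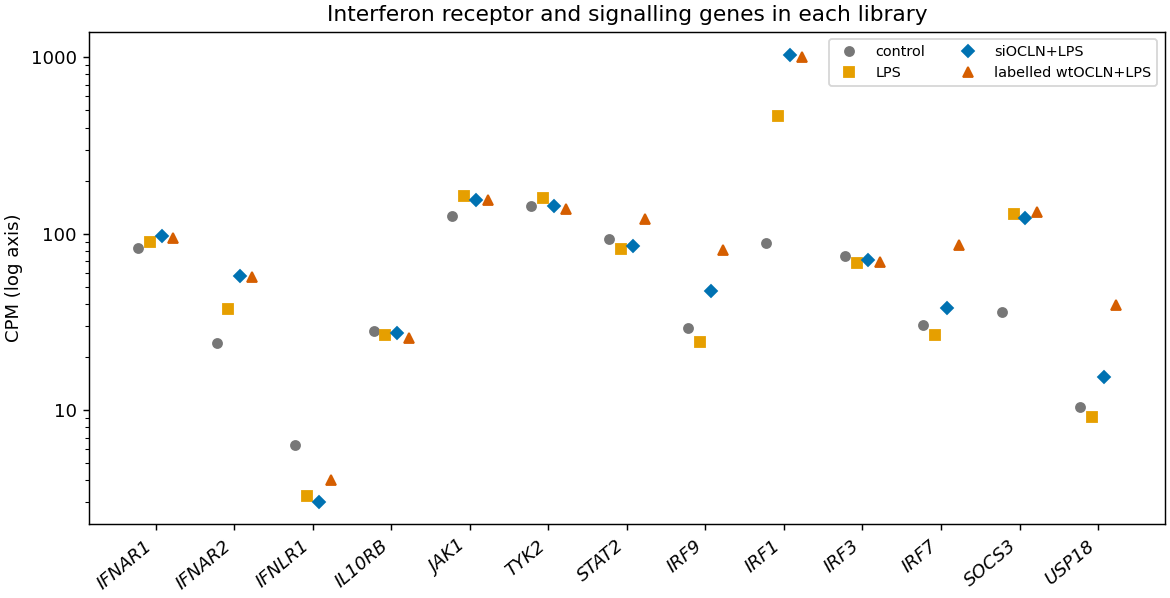
CPM (log axis) of the 13 interferon receptor and signalling genes that reached 1 CPM, in the 4 libraries. IRF9, IRF7 and USP18 are highest in the library labelled wtOCLN, and IRF1 is raised in LPS and near 1000 CPM in both transfected libraries.

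Restriction factors outside the 10 genes were followed in a list of 36, of which 34 were tested. Against LPS, 4 were past 2-fold higher in the siOCLN library and 7 in the library labelled wtOCLN, with 0 lower in both, beside 3.32% of all genes higher in each comparison. The 4 were TRIM22, APOBEC3B, NCOA7 and LY6E, so HERC5 and PLSCR1 were within 2-fold there. In LPS against control 2 of the 34, GBP3 and NCOA7, were higher, beside 1.6% of all genes. HERC5 and PLSCR1 were the 2 past 2-fold lower in the siOCLN library than in the library labelled wtOCLN, beside 0.29% of all genes. TRIM22, an E3 ligase that restricts several viruses, was at 23.6, 22.2, 56.2 and 111 CPM in control, LPS, the siOCLN library and the library labelled wtOCLN. HERC5, the ligase that attaches ISG15, was at 13.8, 10.7, 16.2 and 48.6 CPM. PLSCR1, a phospholipid scramblase with antiviral activity, was at 38.5, 35.7, 67.8 and 137 CPM. The median log2 ratio of the list was 0.24 in the siOCLN library and 0.59 in the library labelled wtOCLN, beside -0.13 and -0.15 over all genes.

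Relatives by sequence or enzyme family were followed in a list of 10 genes. Of these, among them the dynamins, CMPK1, IFITM10 and the ISG20 relatives AEN and ISG20L2, 9 were tested and 1 was past 2-fold in each transfected library against LPS. This was DNM3, a dynamin, at 4.92-fold (3.33 to 7.50) and 4.91-fold (3.33 to 7.49). Over all genes tested, 3.32% were past 2-fold higher in each of these comparisons, and 3.92% and 3.69% lower. IFITM10 was at 2.96 CPM in LPS, 3.26 in the siOCLN library and 2.97 in the library labelled wtOCLN.

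Genes that supply deoxynucleotides, the pool on which SAMHD1 acts, had 0 of 12 past 2-fold in each comparison. Over all genes tested, 0.0763% to 3.92% were past 2-fold in a given direction. A count of 0 in a list this short does not set it apart from all genes. RRM2, a subunit of ribonucleotide reductase, was at 776 to 838 CPM in the 4 libraries. Known partners and regulators of the 10 proteins likewise had 0 of 10 past 2-fold, with the same limit. Among them CCNA2 and CDK1, which form the kinase that phosphorylates SAMHD1, were at 178 and 214 CPM in LPS, at 120 and 171 in the siOCLN library, and at 123 and 167 in the library labelled wtOCLN.

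The chromosomal neighbours of the 10 genes gave a further comparison. RefSeq order on GRCh38.p14 was used to find the nearest gene on each side that the files hold, which gave 12 neighbours outside the 10 genes. Of the 5 at 1 CPM or more in LPS or a transfected library, 0 were past 2-fold on the log2(CPM + 1) scale in the siOCLN library and 1, BISPR, in the library labelled wtOCLN. On that scale BISPR was within 2-fold in the siOCLN library, although its CPM ratio there was 2.10. Over all genes tested, 3.32% were higher in each of these comparisons, and 5 neighbours are too few to set against that share. B4GALNT4, beside IFITM3, was above LPS, with a CPM ratio of 1.25 (1.10 to 1.42) in the siOCLN library. In the library labelled wtOCLN its ratio to LPS was 1.39 (1.22 to 1.57). TLDC2, beside SAMHD1, had ratios to LPS of 0.469 (0.217 to 0.973) and 0.612 (0.305 to 1.21) in the same order. AEN, beside ISG20, was at 127, 115 and 111 CPM in LPS, the siOCLN library and the library labelled wtOCLN. RBL1, beside SAMHD1, was at 142, 120 and 122 CPM. TMPRSS2 and FAM3B, which flank MX1 and MX2, had 0 counts in the 4 libraries.

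Genes with a like pattern were found by the Euclidean distance between centred log2(CPM + 1) profiles over the 4 libraries, among 11417 genes at 5 CPM or more in at least 1 library. The 5 genes nearest to MX1 outside the 10 were OAS2 (distance 0.113), ISG15 (0.351), IFI6 (0.411), XAF1 (0.758) and IFI44L (0.807). The 5 nearest to RSAD2 were the same genes in another order, with OAS2 first at 0.549. OAS2 was at 8.06, 7.50, 71.8 and 254 CPM in control, LPS, the siOCLN library and the library labelled wtOCLN.

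SAMHD1 had other nearest genes: NPR3 (distance 0.208), HIST1H1E (0.224), TNNC1 (0.282), NTF3 (0.293) and SAMD5 (0.322). NPR3, a natriuretic peptide receptor, was at 74.7, 65.0, 275 and 341 CPM in the same order. For SAMHD1, the siOCLN library held 58.7% of the CPM difference between LPS and the library labelled wtOCLN, against 27.1% for MX1 and 17.9% for RSAD2. SAMHD1 was not alone in this, with 69.7% for IFITM2, 54.7% for IFITM3 and 44.9% for BST2. The share was 39.5% for IFITM1, 30.9% for ISG20, 15.3% for MX2 and 14.7% for CMPK2.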

How the data were processed

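The authors deposited whole-number read counts per gene symbol, 1 file per library, for 4 libraries prepared with a directional kit. Per the submitters' processing notes TopHat, Cufflinks and the build hg19 were used; roles and versions are not stated there. How counts were made (tool, annotation, strand setting, shared reads) is not given in the sources used here. Counts were scaled to CPM by library total (13867494 to 17500031 counts). Ratios used a pseudocount of 1 CPM, a minimum of 1 CPM in either library and a 2-fold threshold. CPM intervals are exact Poisson and ratio intervals are Clopper-Pearson on both counts. Ratios of ratios have exact conditional odds-ratio intervals. With 1 library per group edgeR could not be fitted as a test, and it served for TMM factors alone. The steps were tested on simulated counts.

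The members and lists were chosen with earlier results of these data known. One gene of the interferon signalling list is not reported here. Named genes were the 10 members, OCLN, up to 4 genes per list with the largest absolute log2 ratio, and the 5 nearest profiles to RSAD2, MX1 and SAMHD1. Others (PTPRC, KRT7, IFNB1, IFNL1, IFNAR1, JAK1, STAT2, IFITM10, RRM2, CMPK1, AEN, ISG20L2, CDK1 and chromosomal neighbours) were named after their values were seen. The pattern with 1 base between half-sites was added after the promoters had been read. Transcripts are from GENCODE 29 on GRCh38, matched to RefSeq, and were used for length and word sharing, not for coordinates. Tools were Python 3.11.15, NumPy 2.4.6, SciPy 1.17.1, pandas 2.3.3, matplotlib 3.10.9, Biopython 1.88, R 4.3.3 and edgeR 4.0.16.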

Additional observations from a re-analysis of the deposited data

How the results depend on the processing

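Each count of genes past 2-fold was recomputed with pseudocounts of 0.1 and 5 CPM, thresholds of 1.5-fold and 3-fold, a 5 CPM filter or none, and median ratio, upper quartile and TMM scaling. For the comparisons against LPS, control was also taken as the reference in place of LPS. The sum of the IFITM genes as 1 feature was added after seeing the data. The count for LPS against control was 0 under all of these. For the siOCLN library against LPS it ran from 6 at 3-fold to 9, with 8 at a pseudocount of 5 CPM and with the 5 CPM filter. For the library labelled wtOCLN against LPS it ran from 7 of 8 features with the IFITM genes summed to 10. The count of 10 came at 1.5-fold and with control as the reference. For the siOCLN library against the library labelled wtOCLN the count was 8 at 1.5-fold, 4 at 3-fold 5 with the other settings on separate genes, and 4 of 8 features with the IFITM genes summed. Of 377 recomputed log2 ratios of single genes, 327 moved by no more than the distance from middle to end of their counting interval. The remaining 50 moved further. Both the 377 and the 50 include ratios of the transfected libraries to control in place of LPS, where the library compared is another one. None of the log2 ratios past 2-fold changed sign. Thresholds, filters and the IFITM sum cannot alter the log2 ratio of a single gene, so the 327 include values that could not move. With median ratio scaling the median over all tested genes in the siOCLN library against LPS was 0.01 in place of -0.13, and the higher share of calls was 60.8% in place of 45.9%. In the library labelled wtOCLN against LPS that share was 64.7% in place of 47.4%. No paired analysis was possible because each group has 1 library. Depth limits RSAD2, CMPK2 and MX2, with 4 to 13 counts in control and LPS.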
